A study of Homo sapiens with 36 samples.

Results

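The experiment described here reduced EglN2 with siRNA in MDA-MB-231 cells. Its members are the 9 RNA-seq libraries of 1 deposited table, taken by their column names, out of 36 libraries in the series. MDA-MB-231 is an established human breast cancer line. Cells were treated with a control siRNA (siControl, 3 libraries), with a first siRNA against EglN2 (siEglN2-1, 3 libraries) or with a second one (siEglN2-2, 3 libraries), and the 6 siEglN2 libraries were pooled against the 3 controls. All groups grew in DMEM with fetal bovine serum and antibiotics. No time point is given in the labels, and the sequences of the siRNAs are not given in the sources used here. The series also holds the same siRNA design in 293T cells and shRNA against the histone demethylase KDM5A in both lines, and its stated theme links EglN2, hydroxylation of a proline of histone H3, KDM5A and trimethylation of H3 lysine 4. The comparison asks which transcripts changed when EglN2 was reduced.

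EglN2 (PHD1) belongs to the prolyl hydroxylases that use oxygen, iron and 2-oxoglutarate. Enzymes of this family are best known for hydroxylating the alpha subunits of the hypoxia-inducible factors, which the VHL ubiquitin ligase then recognises. A siRNA guide strand loaded into Argonaute cuts a transcript it matches fully. The bases near the guide's 5′ end, its seed, can also pair with short matches in the 3′ UTRs of other transcripts and lower them, as a microRNA does. MDA-MB-231 is a triple-negative line with mesenchymal features, and it is widely used in work on invasion and metastasis.

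Library totals ran from 14388731 to 15859649 counts in the controls and from 15909949 to 18047130 in the siEglN2 libraries. Scaling factors (TMM) were 0.972 to 0.984 in the controls and 1.007 to 1.015 in the siEglN2 libraries. Genes detected numbered 15705 to 15707 in the controls and 15717 to 15734 in the siEglN2 libraries. None of these ranges overlapped, and their part in the results was not tested. Of 25 mesenchymal markers of the line, 24 were in the table, with VIM at 4212 CPM on average in the controls and only CDH2 missing. The estrogen receptor gene ESR1, the progesterone receptor gene PGR and the epithelial cadherin gene CDH1 were not in the table, which holds genes with at least 10 counts in some library. Of 20 markers of other cell types, 7 were in the table, and PTPRC (leukocytes), CDH5 and VWF (endothelium) and HBB (red cells) were among the 13 that were not. The 7 summed to 37.1 to 38.3 CPM in the controls and 36.5 to 39.5 CPM in the siEglN2 libraries. Of the 6 tested, the endothelial and leukocyte gene PECAM1 (-0.44, 3.84 to 4.89 CPM in the controls and 2.99 to 3.68 in the siEglN2 libraries, a call lost without siControl replicate 3) and the pericyte and fibroblast gene PDGFRB (-0.42) fell, and the collagen gene COL1A1 rose (0.34). Of 15 markers of 293T, 3 were in the table, summing to 46.0 to 46.7 CPM in the controls and 50.4 to 55.0 CPM in the siEglN2 libraries, and of the 2 tested GATA2 rose (0.49). The part of these shifts in the results was not tested. SiControl replicate 1 stood apart from the other controls. Its counts differed from those of siControl replicates 2 and 3 with a chi-square per degree of freedom of 6.72 and 7.66, against 1.57 between those 2 and 1.42 to 1.80 within each siEglN2 group. The difference lay in part in structured RNAs, with the 5.8S ribosomal RNA gene RNA5-8S5 at 572, 68.6 and 24.1 CPM in the controls and 16.3 to 31.4 CPM in the siEglN2 libraries. The mitochondrial share of counts was 8.80% to 8.91% in the controls and 9.12% to 9.43% in the siEglN2 libraries, so the groups did not overlap; its part in the results was not tested. No label says that replicate libraries derive from independent cultures, so each p-value is set by the spread among these libraries alone, which may be technical.

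EGLN2 itself stood at 105, 106 and 106 CPM in siControl, at 25.1, 21.4 and 21.1 CPM under siEglN2-1 and at 22.2, 20.8 and 22.1 CPM under siEglN2-2 (CPM, counts scaled to a common library total). The controls were all higher than every siEglN2 library, and the log2 fold change of the pooled comparison was -2.26 ± 0.037 (SE, edgeR adjusted p = 1.51e-39). Of 15109 genes tested, 7504 (49.7%) passed an adjusted p under 0.05 in edgeR's quasi-likelihood test, 3644 (24.1%) of them higher and 3860 (25.5%) lower. Most changes were small: the median log2 fold change was 0.26 among the genes that rose and -0.24 among those that fell. A change of at least 1.5-fold was seen in 983 genes (6.51%), 528 higher (3.49%) and 455 lower (3.01%), and a change of at least 2-fold in 127 higher and 117 lower. Without siControl replicate 1 the counts were 3286 higher and 3470 lower.

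The siEglN2-1 and siEglN2-2 libraries had nearly the same profile. Against the controls alone, siEglN2-1 called 6725 genes (44.5%) and siEglN2-2 called 6859 (45.4%). Set directly against each other, the siRNAs differed in 1 gene (0.00662%), the unnamed low transcript RP4-798P15.3, a gene outside the naming rule, which had 0, 0 and 0.170 CPM with siEglN2-1 and 1.02, 0.496 and 0.988 with siEglN2-2. At an unadjusted p under 0.05, edgeR found 940 genes (6.22%) between them, and DESeq2 called 1 gene after adjustment. Pairs of libraries with different siRNAs differed with a chi-square per degree of freedom of 1.40 to 1.92, close to the 1.42 to 1.80 within each siRNA. Libraries with different siRNAs thus differed about as little as libraries with the same one. Whether the groups hold different siRNAs or the same one cannot be told apart from these values, so their agreement is not given as support from separate reagents. Ranges below cover the 6 siEglN2 libraries together.

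**Figure D1:**
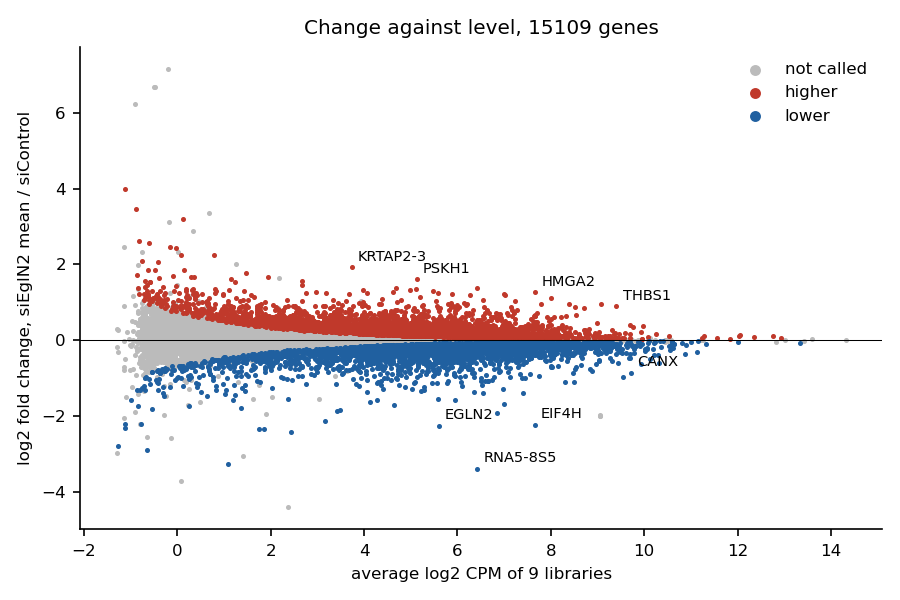
Log2 fold change of the siEglN2 mean over siControl (vertical axis) against average log2 CPM of the 9 libraries (horizontal axis) for 15109 genes, with edgeR calls in red (higher) and blue (lower). The 3644 higher and 3860 lower genes spread about evenly around 0, and EGLN2 and EIF4H lie below the bulk at -2.26 and -2.23.

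Among the genes that fell most were several whose 3′ UTR holds the 7 bases GACAGAA. That word was picked earlier on these same data, so the values here describe it and are no independent evidence for it. Matches are shown for 10 of these transcripts, as examples picked among the named genes by their decrease, and for the coding sequence of EGLN2. The 10 are not a full ranking of carriers by decrease. The comparison below uses all carriers of the word. Each line gives 23 bases of the sense strand, 5′ to 3′, from GRCh38 with GENCODE 29 transcripts, and the capitals mark the match.
EGLN2: agcatcagGACAGAAaggtgtcc
EIF4H: agctatatGACAGAAagtaaatc
IL1B: gcccgcctGACAGAAaccacggc
CLDND1: taggtctaGACAGAAagaaatgg
HTR7: attcatgaGACAGAAtgtatttt
CSF2: tttatactGACAGAAatcagtaa
SLC29A1: aaaggatgGACAGAAggactgcc
ORMDL3: acactgaaGACAGAAagaagaag
PDAP1: atctttgaGACAGAAagatgcag
BTC: tgaaaatgGACAGAAtgtgtctc
EIF4EBP2: agtgaaaaGACAGAAgaggcaat
The EGLN2 match lies in the coding sequence, and the 23 bases shown cross an exon junction (chr19:40807550-40807829, plus strand, a span that takes in an intron). The 3′ UTR of EGLN2, of 569 bases, holds no match. The other 10 lie in annotated 3′ UTRs: EIF4H at chr7:74197018-74197040 (plus strand), IL1B at chr2:112830080-112830102 (minus), CLDND1 at chr3:98516417-98516439 (minus), HTR7 at chr10:90742076-90742098 (minus) and CSF2 at chr5:132076032-132076054 (plus). The SLC29A1 match is at chr6:44233530-44233552 (plus), that of ORMDL3 at chr17:39922463-39922485 (minus), PDAP1 at chr7:99396460-99396482 (minus), BTC at chr4:74746599-74746621 (minus) and EIF4EBP2 at chr10:70421822-70421844 (plus). HTR7 and ORMDL3 hold 3 matches each, and SLC29A1 and PDAP1 hold 2. None of these is shown to be a site of action.

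GACAGAA occurred in the longest 3′ UTR of 1896 of 12484 tested genes that have one, a share of 15.2%. Among these carriers 803 fell (42.4%) and 351 rose (18.5%), with a median log2 fold change of -0.08. Among the 10588 genes without a match, 2800 fell (26.4%) and 3033 rose (28.6%), with a median of 0.01. A decrease of at least 1.5-fold was seen in 9.28% of carriers and 1.74% of the rest. Carriers had longer 3′ UTRs (median 3120.5 against 1171.5 bases), and the difference was also present within bins of length. For 3′ UTRs of 500 to 1500 bases the share lowered at least 1.5-fold was 11.7% of 315 carriers and 1.66% of 3680 other genes, and above 3000 bases it was 6.42% and 1.86%. The reverse complement TTCTGTC, held by 2424 genes, went with a median of 0.01, and the 6 bases GACAGA went with 0.01 in the 3112 genes that hold them but not the full word. Of 15948 words of 7 bases with at least 100 carriers, GACAGAA had the second-lowest median, after GGTCGAT in 105 genes.

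The match was frequent at the low end and rare at the high end. It stood in 12 of the 20 genes with the lowest log2 fold change among those called and in 0 of the 20 highest. Among the 100 lowest it stood in 58, and among the 100 highest in 4. By number of matches, the median log2 fold change was -0.07 with 1 (1571 genes), -0.10 with 2 (268) and -0.07 with 3 or more (57). The share lowered at least 1.5-fold was 8.4%, 13.8% and 12.3%, so neither measure fell steadily with more matches. Within genes with 1 match, the median log2 fold change was -0.11 with a C just before it (50 genes), -0.10 with a T, -0.07 with an A and -0.04 with a G. By the base just after it, the median was -0.11 with a T, -0.09 with an A, -0.07 with a C and -0.04 with a G. The share lowered at least 1.5-fold gave another order, with 10.7% for a T, 8.47% for an A, 6.0% for a C and 5.90% for a G before the match, and 11.5% for an A, 9.79% for a C, 5.93% for a T and 5.67% for a G after it. Not every strongly lowered gene carried it: PODXL, EREG, S100A2, HIF1A, CANX and TIMP3 had no match in their longest 3′ UTR. Those of PODXL and S100A2 are short, at 180 and 331 bases, against a median of 1378.5 over all genes with one. Nor did every carrier fall, since THBS1, OASL and CLOCK each hold 1 and rose. With all carriers left out, an alternative added after the data were seen, 3293 genes were called higher and 3057 lower. The word was picked on these same data and its carriers fell more often. Leaving them out therefore tends to raise a list, and such counts below are no separate evidence.

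**Figure D2:**
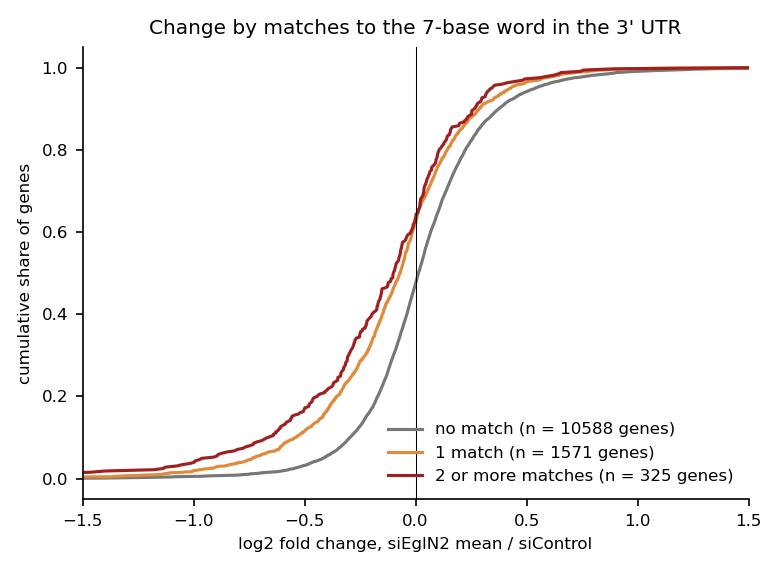
Cumulative share of genes (vertical axis) by log2 fold change of siEglN2 over siControl (horizontal axis, cut at 1.5 on either side), for genes with no, 1, or 2 or more matches to GACAGAA in the longest 3′ UTR. The curves of carriers lie to the left of the grey curve of the 10588 genes without a match, most clearly below -0.2.

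Among abundant transcripts, PODXL, which encodes an anti-adhesive sialomucin of the cell surface, went from 292, 292 and 287 CPM in the controls to 105 to 113 CPM in the siEglN2 libraries (-1.40 ± 0.018 (SE), edgeR adjusted p = 1.18e-43). PDAP1, named for a protein that binds platelet-derived growth factor, went from 168, 164 and 155 to 58.9 to 65.7 CPM (-1.40 ± 0.030). Its levels did not overlap between the groups, nor did those of PODXL. The pseudogene EIF4HP1 fell together with its parent EIF4H, with -2.36, but reads of such near-identical copies may be assigned to either.

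On the rising side, HMGA2, an architectural chromatin protein, stood at 104, 101 and 109 CPM in siControl, at 244, 259 and 245 CPM under siEglN2-1 and at 254, 252 and 244 CPM under siEglN2-2. Every siEglN2 library was more than 2-fold above every control, with a log2 fold change of 1.26 ± 0.025 (SE, edgeR adjusted p = 8.96e-31). OXSR1, a kinase of the WNK pathway that controls ion cotransporters, rose from 67.0, 68.7 and 67.0 to 155 to 159 CPM (1.21 ± 0.025 (SE), edgeR adjusted p = 7.99e-36). CDC34, the ubiquitin-conjugating enzyme of SCF ligases, rose from 39.9, 41.7 and 42.6 to 88.6 to 98.4 CPM (1.18 ± 0.038). FSTL1, a secreted glycoprotein related to follistatin, rose from 139.9, 149 and 147 to 307 to 320.4 CPM (1.10 ± 0.023). NECAP1, which acts in clathrin-mediated endocytosis, and MED20, a Mediator subunit, rose from 14.4 to 16.4 to 38.0 to 39.8 CPM and from 21.5 to 22.8 to 51.2 to 57.0 CPM. All of these genes had groups that did not overlap. In the whole table, 6508 genes (43.1%) had CPM values that did not overlap between the 6 siEglN2 libraries and the controls.

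**Figure D3:**
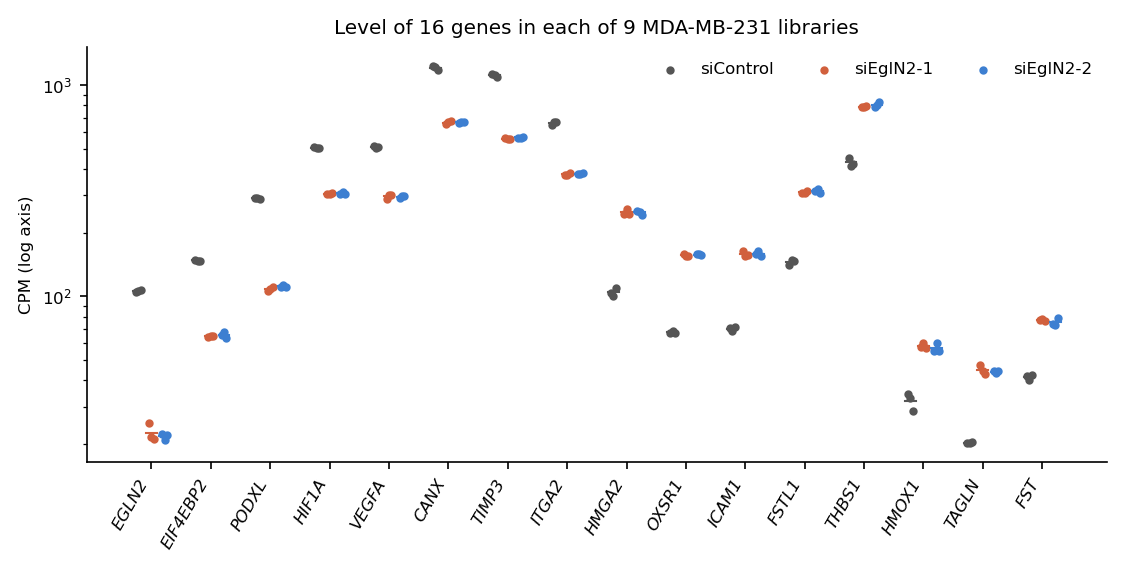
CPM on a log axis (vertical) of 16 genes (horizontal) in each of the 9 libraries, with siControl in grey, siEglN2-1 in orange and siEglN2-2 in blue and a short bar at each group mean. Points of both siRNAs lie together, and for each gene shown they lie on 1 side of the controls, as for HIF1A with 502 to 511 CPM in the controls and 304 to 313 in the siEglN2 libraries.

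Some extreme fold changes rested on little. RNA5-8S5 (-3.39) and the ribonuclease P RNA entry RNaseP_nuc (-2.43) were high mainly in siControl replicate 1, and RNA5-8S5 lost its call without that library. Both also lost the call without any 1 of the siEglN2 libraries. SLX1B-SULT1A4 (-3.27) and SULT1A3 (1.60) are near-identical copies of 1 region, moved in opposite directions, and each lost its call without any 1 of the controls. KRTAP2-3 (1.93) belongs to a family of close copies as well. These values are given as uncertain.

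Oxygen sensing genes moved in both directions, and after the target itself ARNT2 and HIF1A changed most. HIF1A, the oxygen-regulated subunit of the main hypoxia-inducible factor, stood at 511, 502 and 502 CPM in siControl, at 305, 304 and 309 CPM under siEglN2-1 and at 306, 313 and 305 CPM under siEglN2-2. The groups were far apart and the log2 fold change was -0.72 ± 0.019 (SE, edgeR adjusted p = 2.80e-32). VHL, the substrate receptor of the ligase that degrades HIF alpha subunits, went from 99.9, 102 and 98.8 to 74.8 to 81.7 CPM (-0.34). The related hydroxylase genes rose: EGLN3, itself a hypoxia target in many cells, went from 11.3 ± 1.48 CPM (SD, n = 3) to 16.8 ± 0.905 CPM (SD, n = 6) (0.57 ± 0.077 (SE), edgeR adjusted p = 2.35e-08), and EGLN1 had 0.20. HIF1AN, the asparagine hydroxylase that limits HIF activity, had 0.28, and ARNT2, a partner subunit of HIF, rose from 15.5 to 17.1 to 25.2 to 30.1 CPM (0.77). In the list of 17 oxygen sensing genes tested, 6 rose and 6 fell (35.3% each). Their median was -0.06, against a median of 0.00 over all genes. Over all genes tested, 24.1% rose and 25.5% fell, and the counts of every list below are to be read beside these shares.

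Among 41 hypoxia targets and glycolysis genes, 21 fell (51.2%) and 10 rose (24.4%), and the median was -0.03. VEGFA, which encodes the main angiogenic factor, stood at 513, 501 and 508 CPM in siControl, at 289.9, 300.2 and 301 CPM under siEglN2-1 and at 291, 297 and 297 CPM under siEglN2-2, with a log2 fold change of -0.78 ± 0.019 (SE, edgeR adjusted p = 3.62e-33). The VEGFA 3′ UTR holds 2 matches to the word. ANGPTL4, an inhibitor of lipoprotein lipase, and P4HA2, a collagen prolyl hydroxylase, also fell, with -0.82 and -0.71, and neither holds a match. The changes were smaller in glycolysis. LDHA and SLC2A1 had -0.05 and -0.05, and the values of ALDOA, PGAM1, PGK1 and PKM lay between -0.02 and 0.01 and did not pass. KDM3A, a histone demethylase induced by HIF, rose with 0.36.

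Of the enzymes that write or erase H3K4 methylation, 13 of 31 fell (41.9%) and 7 rose (22.6%), with a median of -0.01. Over all genes, 25.5% fell and 24.1% rose. The lysine methyltransferase gene SMYD2 went from 66.9, 75.6 and 71.4 to 43.3 to 50.8 CPM (-0.64 ± 0.040 (SE), edgeR adjusted p = 1.42e-16). KDM1B, a flavin-dependent demethylase, went from 41.0 to 43.0 to 26.5 to 28.7 CPM (-0.60), and its 3′ UTR holds 1 match. KMT2B, an H3K4 methyltransferase, rose from 44.2 to 46.2 to 53.9 to 60.6 CPM (0.36). KDM5A, the demethylase in the series' theme, went from 38.9, 39.3 and 37.0 to 31.8 to 35.1 CPM (-0.18 ± 0.043 (SE), edgeR adjusted p = 4.40e-04). Its groups did not overlap, but the change was far smaller than that of SMYD2. In the fit of 18 libraries that includes 293T, the effect on KDM5A in MDA-MB-231 was -0.18 and did not pass (edgeR adjusted p = 0.127). KDM5B and KDM5C rose, with 0.28 and 0.11, and the 3′ UTR of KDM5B also holds 1 match. With carriers of GACAGAA left out, 8 of 22 members fell and 5 rose.

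**Figure D4:**
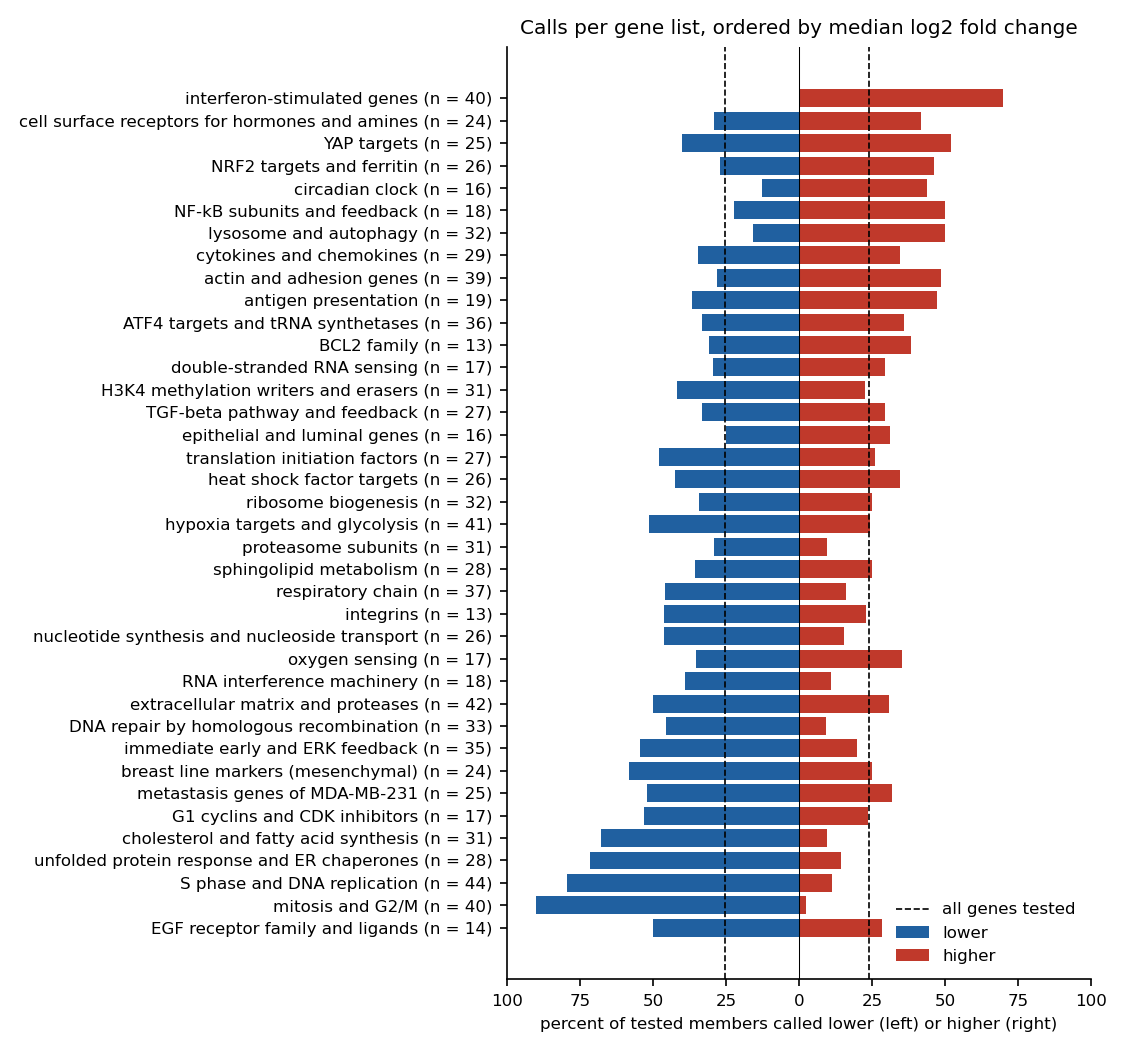
Share of tested members of 38 gene lists called lower (blue, to the left) or higher (red, to the right), in percent on the horizontal axis; lists are ordered by median log2 fold change and n is the number tested. Dashed lines mark the shares over all genes tested, 25.5% lower and 24.1% higher; mitosis reaches 90.0% lower and interferon-stimulated genes 70.0% higher.

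Genes of the cell cycle fell together. In mitosis and G2/M, 36 of 40 members fell and 1 rose, with a median of -0.25, where 25.5% of all genes fell. In S phase and DNA replication, 35 of 44 fell and 5 rose, with a median of -0.22. Members with no match to GACAGAA gave 32 of 36 and 32 of 41 lower. The exceptions included CDC25B, a phosphatase that activates CDK1, with 0.17, and RRM2, a subunit of ribonucleotide reductase, with 0.50. In bulk RNA, fewer cells in a phase and less RNA per cell cannot be told apart.

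Of 17 G1 cyclins and CDK inhibitors, 9 fell and 4 rose. CDKN1A, the CDK inhibitor p21, fell from 69.1, 71.6 and 73.6 to 39.2 to 45.2 CPM (-0.72 ± 0.036 (SE), edgeR adjusted p = 2.09e-21). CDKN2D, an inhibitor of CDK4 and CDK6, fell from 41.4 to 45.5 to 23.1 to 27.4 CPM (-0.79), and CDC25A, a phosphatase that opens S phase, fell with -0.61. The 4 that rose were the cyclin CCNE2, from 9.35 to 10.2 to 14.4 to 16.2 CPM (0.66 ± 0.076 (SE), edgeR adjusted p = 5.59e-10), the CDK inhibitors CDKN1C and CDKN1B, with 0.52 and 0.29, and CDK6, with 0.10. Members that promote the cycle and members that restrain it were found on both sides. In homologous recombination repair, 15 of 33 fell and 3 rose, with a median of -0.12. FANCI and FANCD2, the paired proteins at stalled forks, had -0.58 and -0.48, RAD54L, a DNA translocase of this pathway, had -0.52 and BRCA1 had -0.49. BRCA1 went from 26.0 to 28.6 to 17.3 to 20.8 CPM.

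Most ligands of the EGF receptor family fell. AREG, which encodes amphiregulin, stood at 54.3, 53.6 and 51.4 CPM in siControl, at 27.1, 28.4 and 27.1 CPM under siEglN2-1 and at 26.3, 25.4 and 26.5 CPM under siEglN2-2, with a log2 fold change of -0.99 ± 0.040 (SE, edgeR adjusted p = 8.90e-25). TGFA, another ligand of the receptor, went from 112, 114 and 116 to 61.1 to 64.4 CPM (-0.86 ± 0.029 (SE), edgeR adjusted p = 1.13e-27). BTC, betacellulin, was low throughout, at 1.30, 1.51 and 1.13 CPM in the controls and 0.339 to 0.813 CPM in the siEglN2 libraries (-1.24 ± 0.30 (SE), edgeR adjusted p = 6.04e-04). EREG fell more than any of these, with -1.71. HBEGF and NRG1 fell less, with -0.42 and -0.38, and EGF had -0.29 and did not pass. Of these ligands, BTC holds 1 match to the word and EREG holds none. The receptor EGFR rose slightly, with 0.16, and ADAM17, the protease that sheds several of these ligands, rose with 0.67. In all, 7 of 14 tested members fell and 4 rose, with a median of -0.33. Among 35 immediate early and ERK feedback genes, 19 fell and 7 rose. SPRY4, a feedback inhibitor of receptor tyrosine kinases, fell with -0.73 and holds 1 match.

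Among translation initiation factors, the decreases of EIF4H, a cofactor of the helicase eIF4A, and of EIF4EBP2 stood out from small changes in the rest. EIF4EBP2, which binds and blocks the cap-binding factor eIF4E, stood at 149, 147 and 148 CPM in siControl, at 64.0, 64.7 and 65.1 CPM under siEglN2-1 and at 65.8, 67.7 and 63.5 CPM under siEglN2-2, with a log2 fold change of -1.18 ± 0.028 (SE, edgeR adjusted p = 7.37e-34). EIF4A2, a helicase paralog, rose from 407 to 412 to 553 to 566 CPM (0.46), and EIF4E had 0.24. Of 27 members, 13 fell and 7 rose, and the median was -0.02.

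Genes of protein folding in the endoplasmic reticulum fell: 20 of 28 members of the unfolded protein response list, with 4 higher and a median of -0.21. CANX, the lectin chaperone calnexin, went from 1231, 1211 and 1172 to 653 to 672 CPM (-0.86 ± 0.015 (SE), edgeR adjusted p = 1.45e-38). PDIA4, a disulfide isomerase, had -0.54. HSPA5, the chaperone BiP, went from 1168 to 1183 to 957 to 972 CPM and HSP90B1 from 1167 to 1196 to 994 to 1028 CPM. The 4 that rose were TRIB3, DNAJB9, PPP1R15A and DDIT3, between 0.11 and 0.18. In contrast, the list of ATF4 targets and tRNA synthetases had 13 higher and 12 lower of 36. Among 26 heat shock factor targets, 11 fell and 9 rose. The largest change was in CHORDC1, a co-chaperone of HSP90, which rose from 41.6, 38.3 and 42.7 to 102 to 110.3 CPM (1.37 ± 0.037 (SE), edgeR adjusted p = 8.99e-32). DNAJB4 and HSPA1A, chaperones of the HSP40 and HSP70 families, rose with 0.58 and 0.49, and the HSPA1A reads may be shared with its near-identical copy HSPA1B. BAG3, a co-chaperone of HSP70, fell from 212 to 215 to 132 to 137 CPM (-0.67).

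Genes of sterol and fatty acid synthesis also fell, 21 of 31 lower and 3 higher with a median of -0.19. SCD, the stearoyl-CoA desaturase, fell from 1022, 1026 and 1025 to 725 to 762 CPM (-0.47 ± 0.015 (SE), edgeR adjusted p = 5.26e-29), and STARD4, a sterol carrier, had -0.57. In sphingolipid metabolism, SGPL1, the lyase that breaks down sphingosine 1-phosphate, rose from 37.0 to 38.2 to 63.2 to 66.1 CPM (0.79), while ORMDL3, which restrains the first enzyme of the pathway, fell with -1.64; 10 of 28 members fell and 7 rose.

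**Figure D5:**
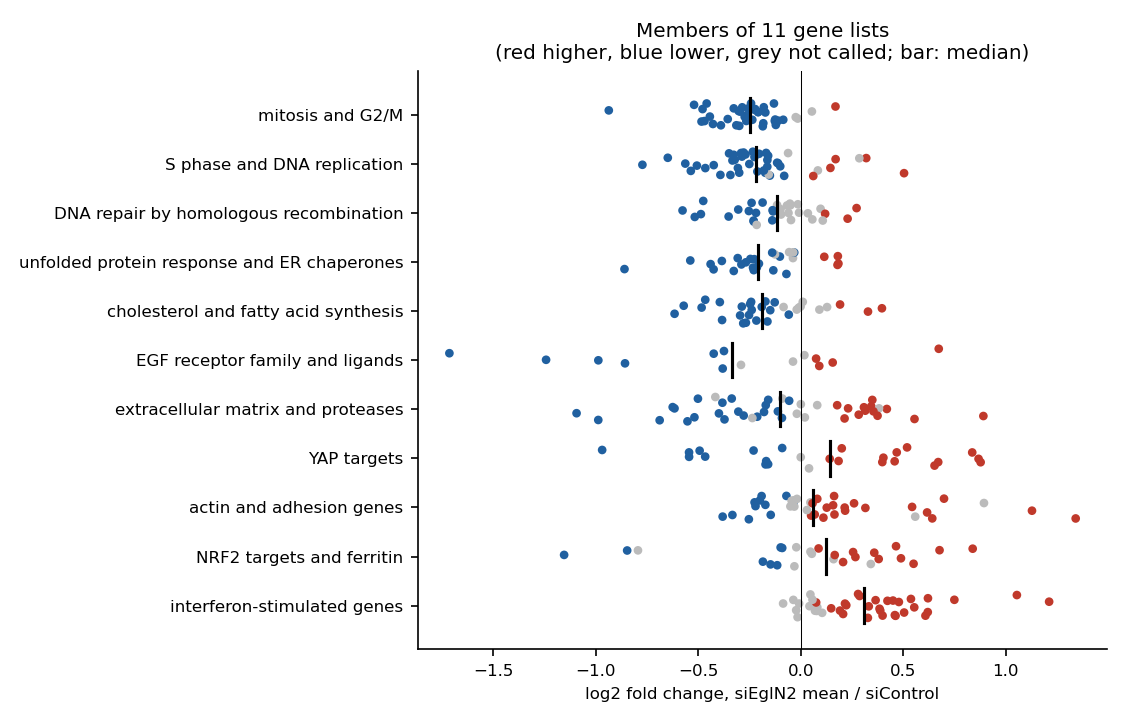
Log2 fold change of siEglN2 over siControl (horizontal axis) for each tested member of 11 gene lists (rows), coloured by edgeR call, with a bar at the median. Mitosis, S phase and sterol genes gather below 0 and interferon-stimulated genes above 0, whereas matrix genes, YAP targets and NRF2 targets spread to both sides.

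Genes of the extracellular matrix and its proteases split, with 21 of 42 lower and 13 higher. TNC, which encodes tenascin C, stood at 142, 147 and 137 CPM in siControl, at 66.6, 67.6 and 65.3 CPM under siEglN2-1 and at 66.0, 65.3 and 69.0 CPM under siEglN2-2, with a log2 fold change of -1.09 ± 0.029 (SE, edgeR adjusted p = 8.99e-32). TIMP3, a matrix-bound inhibitor of metalloproteinases, went from 1129, 1113 and 1094 to 554 to 570.2 CPM (-0.99 ± 0.015 (SE), edgeR adjusted p = 2.77e-41). PLAUR, the urokinase receptor, had -0.62. THBS1, thrombospondin 1, moved the other way, from 452, 416 and 424 to 783 to 828 CPM (0.89 ± 0.023 (SE), edgeR adjusted p = 6.87e-17). Integrins split likewise. ITGA2, the collagen-binding alpha 2 chain, fell from 648, 669 and 669.7 to 373 to 382 CPM (-0.81), and ITGB3, the beta 3 chain, rose from 7.22, 7.36 and 6.58 to 12.4 to 15.5 CPM (1.02). Of 13 integrins tested, 6 fell and 3 rose.

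Among 25 YAP targets, 13 rose and 10 fell, with a median of 0.14. ANKRD1, TGFB2 and CRIM1 rose, with 0.84 ± 0.019, 0.88 ± 0.031 and 0.87 ± 0.020 (SE). ANKRD1 went from 271, 278 and 279 to 485 to 501 CPM. PTPN14, a phosphatase that restrains YAP, fell from 208, 208 and 211 to 104 to 110.1 CPM (-0.97 ± 0.021 (SE), edgeR adjusted p = 1.87e-35), and it holds 1 match to GACAGAA. With the 7 carriers left out, 12 of 18 YAP targets rose and 5 fell, with a median of 0.40. The choice of the word favours such a rise. Not every list moved up without its carriers: the EGF receptor list went from a median of -0.33 to -0.38. Actin and adhesion genes rose in 19 of 39 cases and fell in 11. TAGLN, the smooth muscle protein transgelin, stood at 20.2, 20.3 and 20.4 CPM in siControl, at 47.0, 44.4 and 43.0 CPM under siEglN2-1 and at 44.4, 43.2 and 44.1 CPM under siEglN2-2 (1.13 ± 0.047 (SE), edgeR adjusted p = 2.70e-24). FSCN1, fascin, which bundles actin in filopodia, rose from 82.1 to 88.0 to 132 to 139 CPM (0.70). FST, follistatin, which binds activin, rose from 40.0 to 42.3 to 73.2 to 78.9 CPM (0.88), while the TGF-beta receptor gene TGFBR1 fell, with -0.62, and holds 1 match. Of 27 TGF-beta pathway genes, 9 fell (33.3%) and 8 rose (29.6%), not far from the 25.5% and 24.1% over all genes.

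Of 25 genes tied to metastasis of this line, 13 fell and 8 rose. IL11, a bone metastasis gene of the line, fell from 120.1, 117 and 119 to 62.6 to 68.7 CPM (-0.87 ± 0.031 (SE), edgeR adjusted p = 3.10e-27). The list also holds TNC, PLAUR and ANGPTL4, which fell, and FST and FSCN1, which rose. The mesenchymal markers summed to 11340 to 11530 CPM in the controls and to 10600 to 10810 CPM in the siEglN2 libraries, with 14 of 24 lower and 6 higher, and the part of this shift in other lists was not tested. Epithelial and luminal genes, 16 of 25 in the table, summed to 542.7 to 556.8 CPM in the controls and 540.8 to 555.8 CPM in the siEglN2 libraries, with 5 higher and 4 lower.

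Most genes of the interferon-stimulated list rose. Of 40 tested, 28 rose and 0 fell, with a median of 0.31, where 24.1% of all genes rose. The list does not hold OAS1, which fell and is given below with the sensing genes. CXCL11, a chemokine of this group, was low, at 1.30, 1.99 and 0.991 CPM in the controls and 2.52 to 3.36 CPM in the siEglN2 libraries (1.05 ± 0.20 (SE), edgeR adjusted p = 2.13e-05). Of 17 genes of double-stranded RNA sensing, 5 rose and 5 fell (29.4% each), shares near those over all genes (24.1% and 25.5%). IFIH1, the sensor MDA5, rose with 0.51, and OAS1, an oligoadenylate synthetase, fell with -0.50. DDX58, the sensor RIG-I, had -0.03 and did not pass. Without siControl replicate 1, 3 of these sensing genes rose. STAT2, a transcription factor of the interferon response, rose with 0.33.

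ICAM1, an adhesion molecule and NF-kB target, stood at 70.4, 68.6 and 71.2 CPM in siControl, at 163, 155 and 157 CPM under siEglN2-1 and at 158, 164 and 155 CPM under siEglN2-2, with a log2 fold change of 1.18 ± 0.026 (SE, edgeR adjusted p = 1.24e-34). In the NF-kB list, 9 of 18 rose and 4 fell, with BIRC3 and TNFAIP3 at 0.40 and 0.33. TNFAIP3 rose although it holds 2 matches to GACAGAA. Secreted cytokines went the other way in part: CSF3, LIF and CSF1 fell, with -1.21, -1.09 and -0.62, and IL32 rose, with 0.90. The extremes of the cytokine list were IL1B (-2.12) and TNFSF18 (1.78), the latter low at 0.969 CPM on average in the controls. CSF2 had -1.85, and IL1B and CSF2 each hold 1 match to GACAGAA. Of 29 cytokine and chemokine genes, 10 rose and 10 fell. In antigen presentation, ERAP1, the peptidase that trims peptides for MHC class I, rose from 44.2, 46.1 and 44.4 to 83.3 to 89.4 CPM (0.94 ± 0.035 (SE), edgeR adjusted p = 3.86e-26). In all, 9 of 19 members rose and 7 fell.

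In the RNA interference machinery, AGO4 was the most changed. This Argonaute went from 10.8, 9.15 and 8.64 to 16.4 to 20.6 CPM (0.94 ± 0.085 (SE), edgeR adjusted p = 3.88e-12). AGO2, the Argonaute that cuts its targets, fell slightly, with -0.16, and so did DICER1, with -0.24. AGO1 and AGO3 had 0.04 and -0.13 and did not pass. Of 18 members, 7 fell and 2 rose.

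Among 26 NRF2 targets and ferritin genes, 12 rose and 7 fell. HMOX1, heme oxygenase 1, stood at 34.6, 32.9 and 28.7 CPM in siControl, at 57.2, 60.1 and 57.2 CPM under siEglN2-1 and at 55.1, 60.3 and 54.9 CPM under siEglN2-2 (0.84 ± 0.047 (SE), edgeR adjusted p = 9.36e-17). GCLM, the modifier subunit of the enzyme that starts glutathione synthesis, rose from 77.8 to 86.8 to 131 to 136 CPM (0.68). The aldo-keto reductase AKR1C3 went the other way, from 9.91 to 11.2 to 4.32 to 5.06 CPM (-1.15 ± 0.096), as did AKR1C1, with -0.85. These reductases are close copies, so the split of reads between them is uncertain. NQO1, a standard marker of NRF2 activity, rose with 0.26.

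Lysosome and autophagy genes rose in 16 of 32 cases and fell in 5, and with carriers of the word left out 15 of 28 rose and 2 fell. RRAGD, a GTPase that recruits mTORC1 to lysosomes, rose with 0.59, and ATP6V1A, a subunit of the proton pump, fell with -0.70 and holds 1 match. Of 16 circadian clock genes, 7 rose and 2 fell. CLOCK rose with 0.48 and was a carrier, as were both that fell, ARNTL2 and CRY1. In the respiratory chain, 17 of 37 genes fell and 6 rose, with SDHA at -0.40 and CYC1 at 0.37. Proteasome subunits had 9 of 31 lower (29%, near the 25.5% over all genes) and 3 higher (9.68%). PSMB2 stood out, from 103, 91.7 and 95.3 to 149 to 156 CPM (0.67). Ribosome biogenesis had 11 of 32 lower (34.4%) and 8 higher (25%), against 25.5% and 24.1% over all genes. Its largest decreases were -0.32 (POLR1A, the catalytic subunit of RNA polymerase I) and -0.32 (NOLC1), both carriers. Nucleotide synthesis had 12 of 26 lower and 4 higher, led by the nucleoside transporter SLC29A1.

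Receptors for hormones and amines had 10 of 24 higher and 7 lower, with a median of 0.16. F2RL1, the protease-activated receptor PAR2, fell from 633, 639 and 632 to 363 to 383 CPM (-0.76 ± 0.017 (SE), edgeR adjusted p = 1.93e-34), and holds 1 match. S1PR2, a receptor for sphingosine 1-phosphate, rose with 0.84, and GPRC5B, an orphan receptor, rose with 0.73. The oxytocin receptor gene OXTR rose from 2.80, 2.34 and 3.33 to 7.32 to 8.38 CPM. In the BCL2 family, 5 of 13 rose (38.5%) and 4 fell (30.8%), against 24.1% and 25.5% over all genes. The pro-apoptotic BMF had 0.61.

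The same siRNA design in 293T cells, an embryonic kidney line, allowed a test of the difference in effect in 1 edgeR fit of 18 libraries. Of 14579 genes tested in both lines, 4543 (31.2%) differed in effect. The genes named here were, apart from the EGLN family, picked by their large change in MDA-MB-231. Such a choice favours genes with a larger effect in that line, so these differences do not describe the lines in general. HMGA2 rose more in MDA-MB-231 than in 293T, where its log2 fold change was 0.29, with a difference of 0.97 ± 0.049 (SE, edgeR adjusted p = 4.32e-10). SLC29A1 fell more in MDA-MB-231, by a difference of -0.81 ± 0.049 (SE, edgeR adjusted p = 1.92e-09), and EIF4H did too, by -0.25 ± 0.038 (SE, edgeR adjusted p = 8.73e-05). EGLN1 and EGLN3 moved in opposite directions in the lines, since they had -0.20 and -0.23 in 293T. For OXSR1, PSKH1, ORMDL3 and PDAP1 the difference did not pass (edgeR adjusted p = 0.176, 0.367, 0.577 and 0.0743), with sizes of 0.10 ± 0.054, -0.11 ± 0.088, 0.09 ± 0.11 and 0.18 ± 0.074 (SE). EGLN2 itself fell more in MDA-MB-231, by -0.70 ± 0.084 (SE, edgeR adjusted p = 5.86e-06).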

How the data were processed

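Per the labels' protocols, a Qiagen RNeasy kit gave total RNA, from which an NEBNext Ultra II RNA kit made the sequencing libraries. The deposited table holds, per the file headers, 1 column of raw counts for each library; 50% of the values are whole (remainder of exactly 0), so the authors' values were read as estimated counts and rounded. The tools used were STAR 2.4.2 and Salmon 0.1.19, per the submitters' processing notes, which also list GRCh38 and hg19 without assigning either to a table; counting options and strand are not given in the sources used here. The table holds genes with at least 10 counts in some library. A further 21 rows whose names had become dates were left out (0.187% to 0.197% of counts), which left 15830 genes. The authors' normalized columns were not used.

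Counts were scaled by TMM, filtered (filterByExpr, count minimum 10) and fitted with edgeR 4.0.16 as 3 group means (robust quasi-likelihood F-test, two-sided); the contrast was the mean of both siRNAs minus siControl, with Benjamini-Hochberg adjustment over 15109 genes. The interaction with 293T was fitted on 18 libraries. DESeq2 1.42.0 was an alternative. The code was tested on simulated data. The members and gene lists (41 lists, 1105 symbols, 1017 found) were chosen with earlier results of these data known, so lists are described by counts and medians only. Genes were named by a rule: the EGLN and KDM5 family, the 15 highest and 15 lowest called genes (average log2 CPM 1 or more), the 6 highest and 6 lowest abundant ones (6 or more), and up to 4 members per list with the largest called change. Placeholder names were left out. A few genes and 1 list are not reported here. Other list members were named after their values were seen. Replicate numbers are shared between groups, but residual correlations of equally numbered libraries ran from -0.0528 to 0.0773 and none passed 0.1. The longest 3′ UTR per gene came from GENCODE 29 (418 genes matched through another symbol).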

Additional observations from a re-analysis of the deposited data

Results flagged for a closer look

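Each value here is the log2 fold change of EglN2 siRNA in MDA-MB-231 minus that in 293T. Only the EGLN and KDM5 family and the leading genes of the MDA-MB-231 comparison were looked at. Of these, the genes below passed the adjusted p of edgeR's interaction test over 14579 genes, of which 31.2% passed. Genes outside this choice passed too, such as OASL with 1.99, SMYD2 with 0.47, HIF1A with -0.60 and VEGFA with -1.15. With OXTR at 1.74, KBTBD8 at 1.16, HMGA2 at 0.97, NEK11 at 0.85, EGLN3 at 0.81, CDC34 at 0.61, SYNPO at 0.43, EGLN1 at 0.41, MED20 at 0.40, FSTL1 at 0.39, CHORDC1 at 0.36 and NECAP1 at 0.25, the value was higher in MDA-MB-231. It was lower there for SLC29A1 at -0.81, CLDND1 at -0.77, EGLN2 at -0.70, PODXL at -0.45, KDM5A at -0.37 and EIF4H at -0.25. OXTR and KBTBD8 had no call in 293T, with -0.27 and 0.14. One control column of 293T carries no replicate number and was taken as the remaining control. The difference of KDM5A did not pass without siControl replicate 1 or 2 (edgeR adjusted p = 0.0558 and 0.0575), and that of NEK11 did not pass without siControl replicate 1 (0.0531).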

How the results depend on the processing

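The counts of genes called higher and lower stayed within 1.5 times their main values with DESeq2 (3006 and 3259), median-of-ratios scaling, no filter, a stricter filter, an adjusted p under 0.01 (2860 and 3200), 2 groups in the model, and each siRNA alone. Asking for a 1.5-fold change left 528 higher and 455 lower, 983 in all, with 951 for siEglN2-1 and 972 for siEglN2-2. Between the siRNAs, 1 gene was called in the main comparison, 0 without the filter on low counts, 3 with an average log2 CPM of at least 1, 0 at an adjusted p under 0.01, and 0 to 7 when 1 library was left out. Leaving out 1 library gave 3253 to 3571 higher, 3470 to 3787 lower and 6756 to 7339 in all, and 3808 to 4291 genes that differed from 293T. With the replicate number as a block, 3604 were higher and 3825 lower, 2 genes differed between the siRNAs, and RNA5-8S5, RNaseP_nuc and SLX1B-SULT1A4 lost their calls; the numbers were not read as pairs. Of 177 named genes, 11 lost the call without some library, among them BMP2, CERS1, PECAM1, PER2, RCL1, RNA5-8S5, RNaseP_nuc, SLX1B-SULT1A4, SULT1A3 and TNRC6C. The cause was not tested. Scaling moved the median log2 fold change of all genes from 0.001 to 0.004. The interaction count was 4251 with DESeq2. At these depths, changes in genes of a few CPM rest on few counts.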
